A study of Homo sapiens with 27 samples.

Results

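The genes described here are 7 matrix metalloproteinases (MMPs), MMP1, MMP2, MMP3, MMP9, MMP13, MMP14 and MMP15, and 3 tissue inhibitors of metalloproteinases, TIMP1, TIMP2 and TIMP3. They were taken by name from the gene table of the series, as 10 of its 57165 genes. No cutoff on their measured levels was used, but earlier results of these data were known when they were chosen. RNA was sequenced in 27 libraries, 3 in each of 9 groups, from SUM159 and MDA-MB-231, which are established human triple negative breast cancer cell lines. The study repressed ZEB1, a zinc finger repressor of epithelial genes, with dCas9-KRAB, a cleavage-dead Cas9 fused to a repressor domain that guide RNAs (gRNAs) bring to a promoter.

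In SUM159 the groups were wild type, No gRNA (dCas9-KRAB with no guide), gRNA 4 (a single ZEB1 guide) and All gRNA (4 ZEB1 guides together), all in run 1, and a further wild type group in run 2. Only the titles of that further group name a run. For all other libraries the run was inferred from the prefix B1 or B2 of the sample descriptions. The labels do not say what a run was. In MDA-MB-231, all in run 2, the groups were wild type, No gRNA and a pair of ZEB1-targeted groups whose labels conflict. The titles of set 1 name gRNA4 and those of set 2 name the 4 guides, whereas the sample descriptions name the opposite, so neither set was assigned to a guide condition. Every group but wild type carried a lentiviral vector with dCas9-KRAB under a ubiquitin C promoter and was selected with puromycin, so that wild type differs from No gRNA by transduction and selection as well as by dCas9-KRAB. The methods describe the libraries as individual clones. If each is a clone, the spread between the 3 libraries of a group includes differences between clones, and the labels do not say whether the SUM159 wild type libraries of run 2 are new cultures. SUM159 medium held insulin and hydrocortisone, which the MDA-MB-231 medium was not stated to hold, so cell line and medium cannot be told apart in any comparison of the lines.

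MMPs are zinc endopeptidases that cut proteins of the extracellular matrix, and most are secreted as inactive proenzymes whose inhibitory propeptide has to be removed. Collagenases (MMP1, MMP13) cleave fibrillar collagen, the stromelysin MMP3 cleaves proteoglycans and other matrix proteins and can activate other proenzymes, gelatinases (MMP2, MMP9) digest denatured collagen and basement membrane collagen, and the membrane-type enzymes (MMP14, MMP15) are anchored at the cell surface, where MMP14 together with TIMP2 activates pro-MMP2. TIMPs bind the active site of MMPs as tight inhibitors, and TIMP3 is unusual in that it is held in the matrix. In carcinoma the family is known for its part in invasion through basement membrane and stroma, and much of it can be made by stromal cells as well as by the tumour cells.

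Estimated counts per library summed to between 15461200 and 21473757, and no pair of libraries of the same group matched within sampling noise. Pairs of libraries from different groups were not compared in that way. Levels are given as CPM, the estimated counts of a gene scaled to a common library size, and a difference is called where limma's TREAT test placed it beyond a log2 fold change of 1 with a Benjamini-Hochberg adjusted p below 0.05 over all genes tested. The moderated test of the same fit, which asks only for a difference from 0, is named where used. ZEB1 fell in all 4 targeted groups, from 73.7 ± 3.30 CPM (SD, n = 3) in SUM159 No gRNA to 3.46 ± 1.01 (gRNA 4) and 0.737 ± 0.331 (All gRNA). The MDA-MB-231 groups stood at 110.1 ± 10.1 CPM with No gRNA, against 5.33 ± 0.520 for set 1 and 4.69 ± 0.888 for set 2. Of markers of the cell type, ESR1 and PGR reached at most 0.185 and 0.959 CPM, and VIM ranged from 1316 to 4343 CPM. ERBB2 was read in all 27 libraries, at 38.1 to 72.1 CPM. CDH2, a mesenchymal cadherin, ran from 0.0455 to 139 CPM, and KRT18, an epithelial keratin, from 152 to 1118. The defining markers of immune and endothelial cells PTPRC, CD3E and CDH5 reached at most 0.294, 0.0594 and 0.261 CPM, with PECAM1 at 0.382 to 7.93 and CD68, a lysosomal protein that tumour cells also make, at 8.50 to 174 CPM. EPCAM, an epithelial marker, moved with the groups, with 12.6 CPM in MDA-MB-231 No gRNA against 290.0 for set 1 and 380.2 for set 2, and its part in the results on these genes was not tested. KRT8, CDH1 and VIM differed between the sets by the moderated test. KRT8, an epithelial keratin, stood at 264 CPM in MDA-MB-231 No gRNA, 242 in set 1 and 1012 in set 2, and CDH1, which encodes E-cadherin, at 0.495, 17.8 and 3.00 CPM. VIM, the mesenchymal filament protein, stood at 2384, 1320 and 2508 CPM in the same order, and the part of these genes was not tested either. The SUM159 wild type libraries of run 2 stood apart from those of run 1 in TIMP3 and MMP1, and values from both runs are given in the comparison of the lines.

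In MDA-MB-231 the targeted sets shared a fall in TIMP3. MMP9 was called higher in set 1, and MMP1 and MMP2 were called lower and MMP15 higher in set 2, while MMP2 was lower and MMP15 higher in both sets by the moderated test. When the sets were compared with each other, MMP1, MMP3 and MMP9 were called. In SUM159 no gene of the 10 was called against No gRNA in either targeted group, and MMP1, MMP9 and MMP13 were too low there to pass the filter on low counts. With All gRNA TREAT called 0 of the 7 genes tested, where 0.396% of all genes tested were called, and with gRNA 4 also 0 of 7, against 0.39% of all genes. At an unadjusted TREAT p below 0.05 the count was 0 of 7 in both, and edgeR's glmTreat and DESeq2 with the same threshold also called 0. The moderated test passed 2 of 7 with All gRNA (10.8% of all genes), TIMP1 and TIMP2, and 3 of 7 with gRNA 4 (11.0%), all the TIMPs. In MDA-MB-231 set 1 TREAT called 2 of 10 genes, MMP9 and TIMP3, against a background of 1.47%, and in set 2 it called 4 of 10, MMP1, MMP2, MMP15 and TIMP3, against 4.14%. By the moderated test 7 of 10 passed in each set, against 37.8% of all genes in set 1 and 52.4% in set 2. The median log2 fold change of the genes tested was -0.03 with All gRNA, 0.28 with gRNA 4, 0.23 in set 1 and -0.84 in set 2 beside medians over all genes of between -0.01 and 0.00. These 4 comparisons are within 2 lines and share their No gRNA libraries within a line, so a high or low No gRNA library enters both. In bulk RNA a lower level in fewer cells and less RNA in each cell cannot be told apart, which holds for each difference given here.

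**Figure D1:**
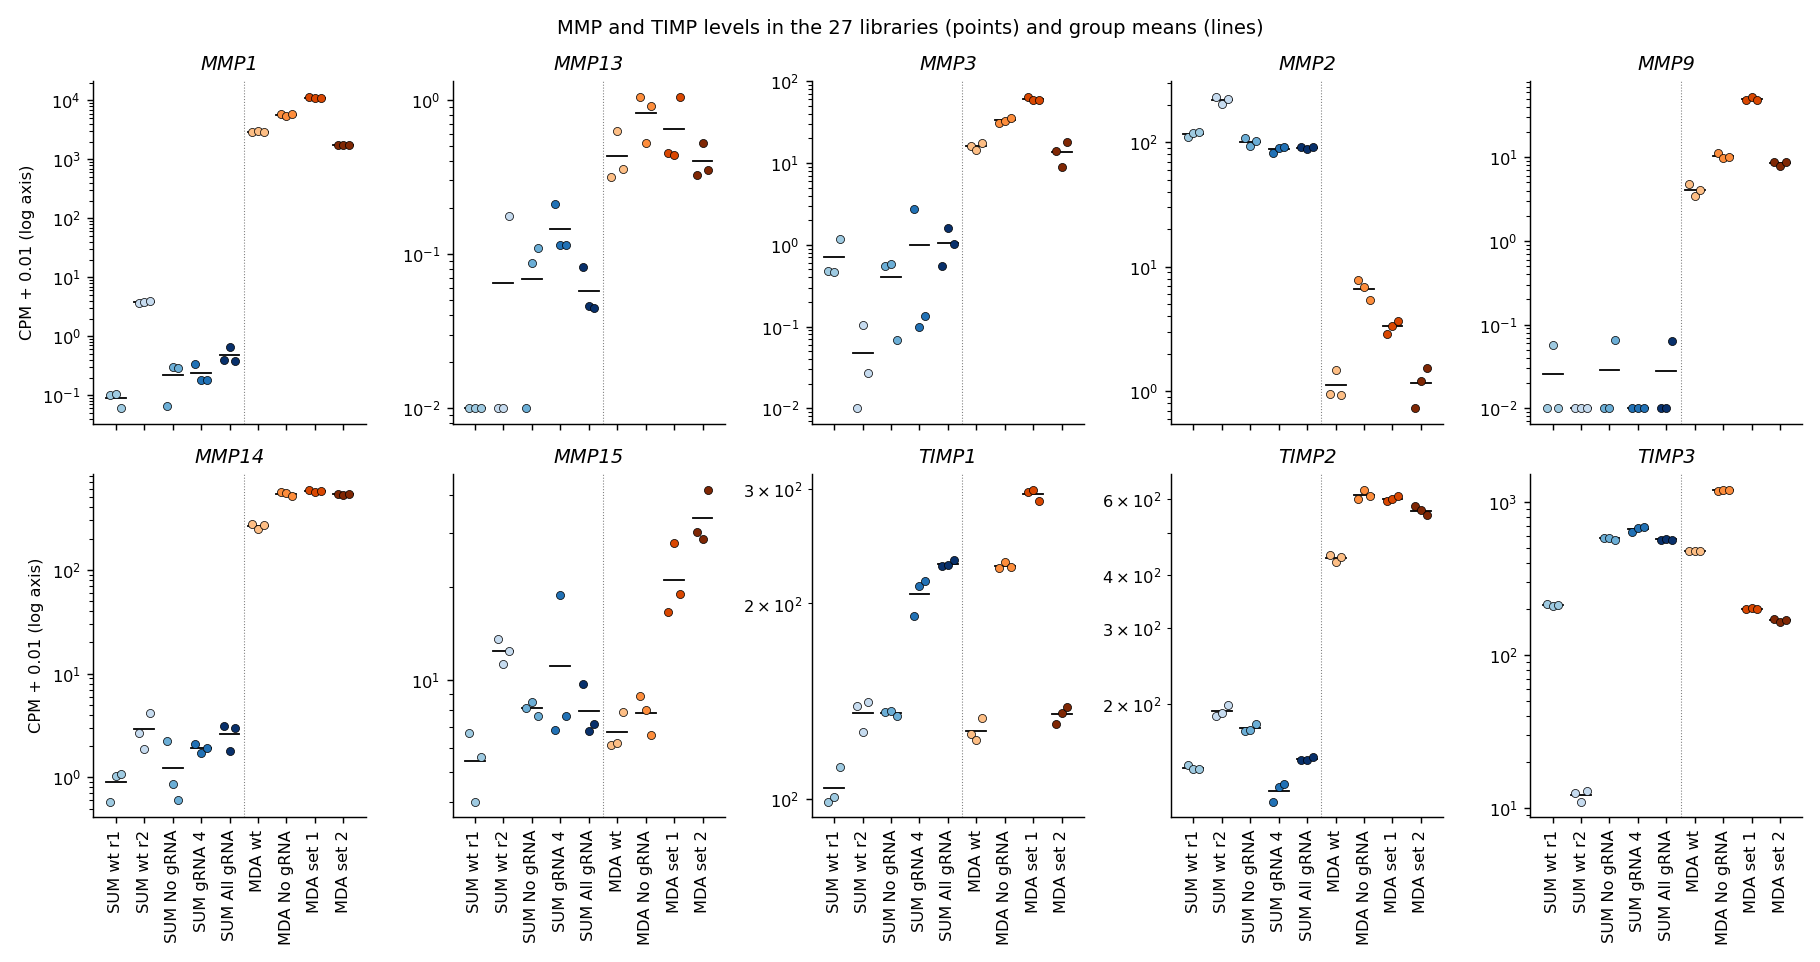
Level of each of the 10 genes in every library, in CPM on a log10 axis (offset 0.01 CPM), with a panel for each gene, a point for each library and a bar at each group mean; the x axis gives the 9 groups, abbreviated as SUM or MDA, wt for wild type and r1 or r2 for the run. MMP1, MMP9 and MMP14 stand far higher in MDA-MB-231 than in SUM159, MMP2 stands higher in SUM159, and TIMP3 of the SUM159 wild type libraries sits between 209 and 218 CPM in run 1 and between 11.1 and 12.95 in run 2.

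**Figure D2:**
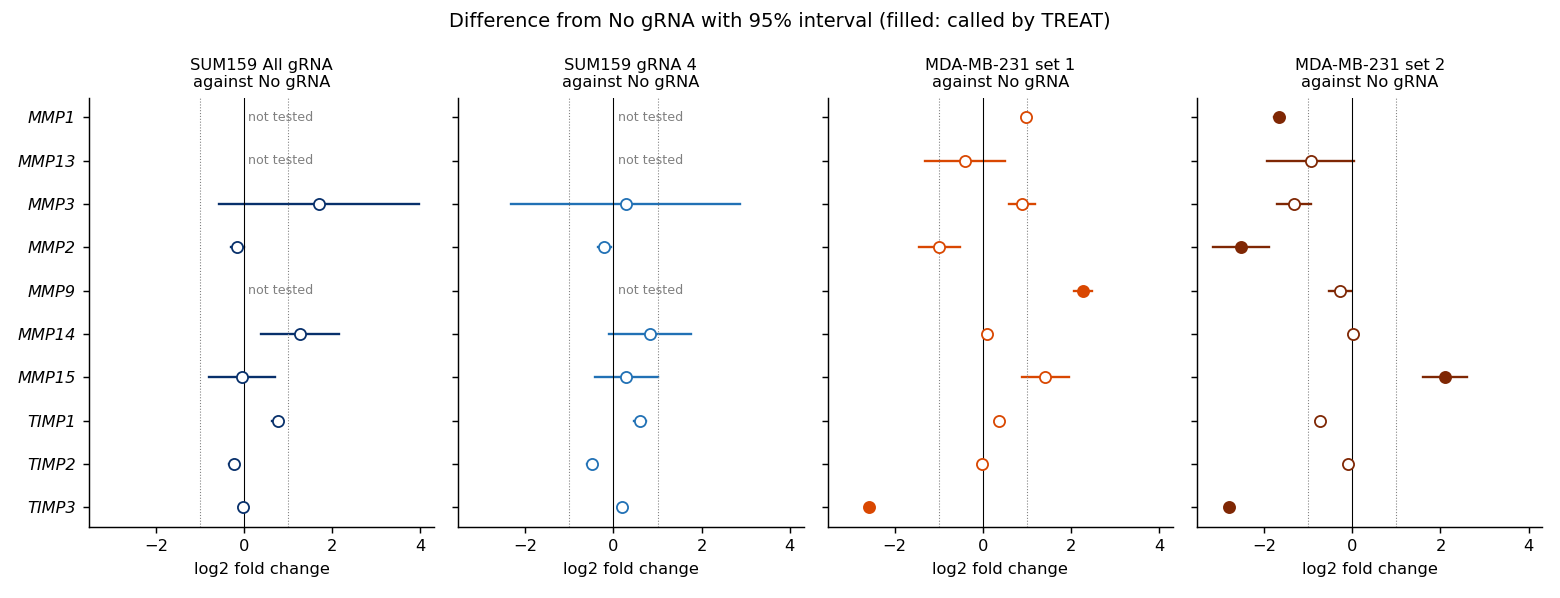
Log2 fold change of each gene against No gRNA of its line in the 4 ZEB1-targeted groups, as points with bars of the 95% interval from the limma fit; filled points were called by TREAT, and dotted lines mark a log2 fold change of 1 in either direction; MMP1, MMP13 and MMP9 were not tested in SUM159. TIMP3 lies at -2.57 and -2.80 in the MDA-MB-231 sets and at -0.03 and 0.19 in SUM159, and MMP1 lies on opposite sides of 0 in the MDA-MB-231 sets.

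MMP1 (ENSG00000196611), the interstitial collagenase, lies on chromosome 11 of GRCh38 from 102789401 to 102798160, on the minus strand, with 10 exons. In MDA-MB-231 it was read at 5855, 5422 and 5856 CPM in the No gRNA libraries. The libraries of set 1 gave 11600, 10950 and 11050 CPM, and those of set 2 gave 1781, 1752 and 1787 CPM. All 3 libraries of set 1 therefore lay above, and all 3 of set 2 below, every No gRNA library. Set 2 was 3.17-fold lower in MMP1 than No gRNA, at a log2 fold change of -1.66 (SE 0.0505, TREAT adjusted p = 3.70e-06). In set 1 the difference was 0.98 (SE 0.0271), 1.97-fold higher, with a 95% interval of 0.92 to 1.04, which the moderated test passed (adjusted p = 5.07e-10) while TREAT did not (adjusted p = 1.0). Wild type libraries, at 2937, 2978 and 2949 CPM, lay between No gRNA and set 2. Against wild type as the control MMP1 in set 1 stood at 1.87 and was called (adjusted p = 1.21e-08). The set 2 call for MMP1 was lost against wild type as the control, where the log2 fold change was -0.77 (adjusted p = 1.0). It was also lost with no filter on low counts, at -1.64 with adjusted p = 1.0. Over the 16 settings recomputed the adjusted p of MMP1 in set 2 ranged from 3.04e-75 to 1.0. As a share of all counts MMP1 made up 0.315% for wild type and 0.597% for No gRNA, then 1.11% for set 1 against 0.181% for set 2.

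In SUM159 MMP1 was near the limit of detection in run 1. The 12 run 1 libraries ranged from 0.0502 to 0.662 CPM, and it did not pass the filter on low counts there. The highest values, 0.390, 0.662 and 0.372 CPM, were those of the All gRNA libraries, and the lowest mean, 0.0792 ± 0.0251 (SD, n = 3), was that of wild type. MMP13 (ENSG00000137745), collagenase-3, on chromosome 11 from 102942995 to 102955732 on the minus strand, was low in both lines. In MDA-MB-231 No gRNA stood at 0.813 ± 0.269 CPM, set 1 at 0.635 ± 0.349 and set 2 at 0.391 ± 0.109 (SD, n = 3), and the groups overlapped. Its log2 fold change was -0.41 in set 1 (moderated adjusted p = 0.476) and -0.94 (SE 0.448) in set 2 (moderated adjusted p = 0.0986), so a difference was not detectable at this depth. In SUM159 MMP13 was not tested, and 7 counts in the gRNA 4 libraries against 3 in No gRNA give a ratio of 2.36 with an exact 95% interval of 0.540 to 14.2 that covers counting error only.

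MMP3 (ENSG00000149968), stromelysin-1, lies on chromosome 11 from 102835801 to 102843609 on the minus strand, in the cluster that holds MMP1. In MDA-MB-231 its libraries gave 31.1, 32.6 and 35.7 CPM in No gRNA. Set 1 gave 64.9, 58.7 and 59.7 CPM, and set 2 gave 14.2, 8.90 and 17.9 CPM. The groups were ordered as for MMP1 and did not overlap. The log2 fold change was 0.89 (SE 0.133, moderated adjusted p = 0.00032) in set 1 and -1.32 (SE 0.179, moderated adjusted p = 7.77e-05) in set 2, neither beyond the threshold of TREAT (adjusted p = 1.0 and 0.615). With wild type as the control set 1 stood at 1.88 in MMP3 and was called (adjusted p = 0.00184). In SUM159 its libraries disagreed, with 2.75, 0.0883 and 0.124 CPM in gRNA 4, and its median coefficient of variation was 41.7% over the 8 groups for which it was computed, beside 40.5% for MMP13 over 6 groups. With All gRNA it stood at 1.69 (SE 1.03) on the log2 scale relative to No gRNA, and the moderated test did not pass (adjusted p = 0.343). In MDA-MB-231 wild type MMP3 stood at 16.0 ± 1.47 CPM, which set 2 overlapped, and the SUM159 means ran from 0.0374 ± 0.0510 in wild type of run 2 to 1.06 ± 0.532 with All gRNA (SD, n = 3), each group overlapping the next.

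MMP1, MMP3 and MMP13 share a stretch of chromosome 11 with other MMP genes, and 15 genes tested in MDA-MB-231 have their start within 1 Mb of that of MMP1. Of these, 5 are MMP genes or the pseudogene WTAPP1, which overlaps MMP1 and MMP3 on the opposite strand, and 10 are others. In set 2 the called genes were WTAPP1, MMP10 and MMP1, the latter 2 at log2 fold changes of -3.68 and -1.66, and of the 10 others CFAP300, 750.7 kb from MMP1, at -2.54 (named after its value was seen). In set 1 none of the 15 was called by TREAT. MMP10, stromelysin-2, starts 17.5 kb from MMP1 and gave 5.48, 6.29 and 8.50 CPM with No gRNA, 16.3, 13.4 and 15.9 for set 1, and 0.388, 0.571 and 0.511 for set 2. These groups were in the same order as for MMP1 and MMP3. Wild type stood at 0.562 ± 0.162 CPM in MMP10 (SD, n = 3), which set 2 overlapped. MMP10 was called higher in No gRNA than in wild type, by 3.47 (SE 0.351). WTAPP1 rested on few reads, with 50 counts in No gRNA against 3 in set 2, a ratio of 15.5 (exact 95% interval 5.02 to 77.9, counting error only). Whether counting used strand is not given in the sources used here, so reads of WTAPP1 and of its MMP partners cannot be told apart.

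**Figure D3:**
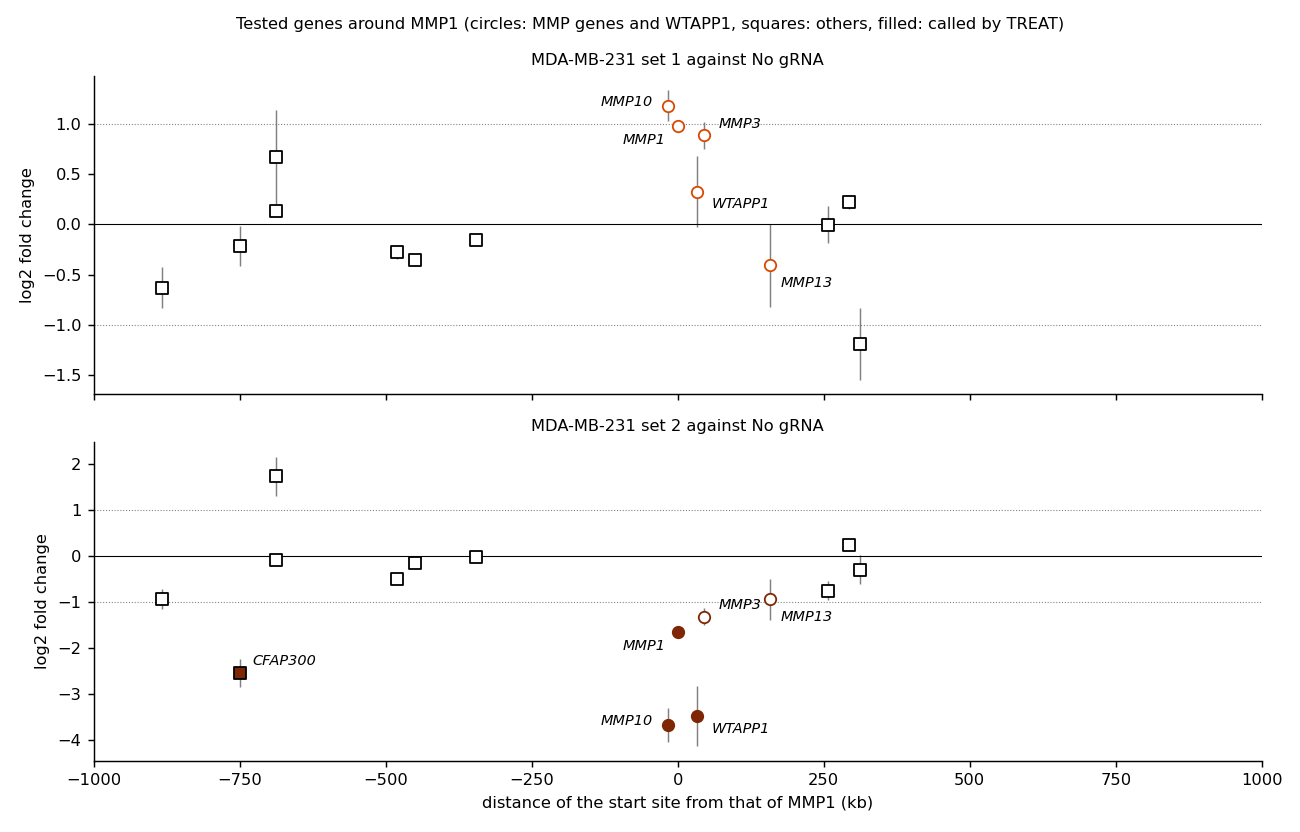
Log2 fold change (points, with bars of 1 standard error) of the 15 genes tested within 1 Mb of MMP1, against distance of the start site from that of MMP1 in kb, for MDA-MB-231 set 1 (upper panel) and set 2 (lower panel) relative to No gRNA. Circles are MMP genes and WTAPP1, squares are other genes, filled symbols were called by TREAT, and in set 2 the filled symbols are MMP1, MMP10, WTAPP1 and CFAP300.

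MMP2 (ENSG00000087245), gelatinase A, lies on chromosome 16 from 55389700 to 55506691 on the plus strand and was the gelatinase of SUM159. There it stood at 107.3, 94.2 and 101.4 CPM in No gRNA, 81.9, 89.2 and 92.4 in gRNA 4, and 92.0, 88.1 and 91.8 in All gRNA. Both targeted groups lay below all No gRNA libraries by a small margin, at log2 fold changes of -0.21 and -0.16, which the moderated test did not pass (adjusted p = 0.0732 and 0.178). In MDA-MB-231 MMP2 was low. The No gRNA libraries gave 7.76, 6.85 and 5.37 CPM, those of set 1 gave 2.88, 3.36 and 3.69, and those of set 2 gave 0.720, 1.21 and 1.53. Each targeted library lay below each No gRNA library, and set 2 rested on 12.3 to 24.1 estimated counts a library. In set 2 MMP2 was 5.78-fold lower than in No gRNA (log2 fold change -2.53, SE 0.289, TREAT adjusted p = 0.00519), and set 1 was lower at -0.99 (SE 0.210, moderated adjusted p = 0.00323). Wild type stood at 0.945, 1.48 and 0.917 CPM, a level that set 2 overlapped, and against wild type as the control the set 2 value was -0.02 (adjusted p = 1.0, within a range of 1.9e-05 to 1.0 over the settings). Set 1 changed sign against wild type in MMP2, to 1.52 (adjusted p = 0.434).

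MMP9 (ENSG00000100985), gelatinase B, lies on chromosome 20 from 46008908 to 46016561 on the plus strand, with 13 exons. In MDA-MB-231 it gave 11.3, 9.90 and 10.0 CPM in No gRNA. The set 1 libraries stood at 48.6, 53.0 and 48.0 CPM, and those of set 2 at 8.68, 7.94 and 8.67. Set 1 was far above all other MDA-MB-231 libraries, and set 2 was just below No gRNA. MMP9 rose in set 1 by 2.27 (SE 0.0912, TREAT adjusted p = 4.78e-06), 4.82-fold, and was called under all 16 settings recomputed, with adjusted p of at most 0.000549. In set 2 the difference of -0.28 did not pass the moderated test (adjusted p = 0.0687). Wild type, at 4.74, 3.39 and 4.03 CPM, was the lowest MDA-MB-231 group. In SUM159 MMP9 was above 0 in 3 of 15 libraries, at no more than 0.0552 CPM.

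MMP14 (ENSG00000157227), the membrane-type enzyme that activates pro-MMP2, lies on chromosome 14 from 22836560 to 22849041 on the plus strand. It was high in MDA-MB-231, where No gRNA gave 559.1, 544.1 and 514.3 CPM, set 1 gave 590.0, 562.1 and 572.8, and set 2 gave 538.7, 531.0 and 541.9. The log2 fold changes were 0.10 (moderated adjusted p = 0.055) and 0.02 (moderated adjusted p = 0.692), and only set 1 lay wholly above No gRNA. In SUM159 MMP14 was low, at 1.22 ± 0.875 CPM in No gRNA, 1.91 ± 0.196 in gRNA 4 and 2.63 ± 0.723 in All gRNA (SD, n = 3). With All gRNA the log2 fold change was 1.27 (SE 0.405, moderated adjusted p = 0.0692), with overlapping libraries, so a change in SUM159 was not detectable at this depth. Wild type stood at 266.0 ± 14.2 CPM in MDA-MB-231, below every other group of the line, and at 0.889 ± 0.273 in run 1 and 2.90 ± 1.20 in run 2 of SUM159.

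MMP15 (ENSG00000102996), another membrane-type enzyme, lies on chromosome 16 from 58025754 to 58046901 on the plus strand. In MDA-MB-231 No gRNA it gave 8.82, 7.99 and 6.61 CPM. Set 1 gave 16.6, 27.9 and 19.0 CPM, and set 2 gave 30.2, 28.7 and 41.5 CPM. Each targeted library lay above each No gRNA library, with a wide spread within the sets. MMP15 rose in set 2 by 2.10 (SE 0.230, TREAT adjusted p = 0.0095), 4.30-fold. Without MDA-MB-231 No gRNA replicate 3 the value was 1.99 with adjusted p = 0.0555 and was no longer called, and over the settings recomputed adjusted p ranged from 8.3e-06 to 0.0555. In set 1 the log2 fold change was 1.42 (SE 0.242, TREAT adjusted p = 1.0), which the moderated test passed (adjusted p = 0.000782). In SUM159 the groups overlapped, at log2 fold changes of -0.05 with All gRNA and 0.29 with gRNA 4, and the latter rested on 1 library of 18.9 CPM beside 6.87 and 7.60. Without gRNA 4 replicate 2 the SUM159 gRNA 4 value of MMP15 was -0.16. Wild type stood at 6.73 ± 0.975 CPM in MDA-MB-231, which overlapped No gRNA, and at 5.43 ± 1.35 in run 1 and 12.4 ± 1.13 in run 2 of SUM159, beside 8.07 ± 0.428 in SUM159 No gRNA (SD, n = 3).

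ZEB1 binds E-box letters such as CAGGTG, and the promoters of genes that moved are shown for that reason. The table of promoter sequences used here, from RefSeq on GRCh38.p14, held 4 of the 10 genes (MMP14, MMP15, TIMP1 and TIMP3), each from 250 bases before to 50 bases after the start. The letters searched on both strands were TGANTCA (an AP-1 type site), CAGGTG (an E-box, CACCTG on the opposite strand) and TATAAA, which occur in 7.7%, 20.6% and 11.5% of 35116 such promoters. Of the 4 promoters only that of MMP15 held any of them. It has CACCTG at positions -134 and -110 from the start, in capitals here, where 3.49% of all promoters hold CAGGTG on either strand at least 2 times, and a GC content of 75.3%. The promoter of TIMP3, the gene called in both MDA-MB-231 sets, has a GC content of 72.7% and is shown beside it. A match is a description of the letters, and a window without a match says nothing of binding elsewhere.
MMP15, chr16:58025504-58025803, plus strand: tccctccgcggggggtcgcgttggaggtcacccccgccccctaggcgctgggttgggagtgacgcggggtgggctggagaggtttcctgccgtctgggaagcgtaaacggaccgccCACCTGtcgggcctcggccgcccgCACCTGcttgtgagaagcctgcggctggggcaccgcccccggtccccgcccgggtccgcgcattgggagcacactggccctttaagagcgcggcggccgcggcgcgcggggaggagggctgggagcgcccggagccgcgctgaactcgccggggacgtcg
TIMP3, chr22:32801455-32801754, plus strand: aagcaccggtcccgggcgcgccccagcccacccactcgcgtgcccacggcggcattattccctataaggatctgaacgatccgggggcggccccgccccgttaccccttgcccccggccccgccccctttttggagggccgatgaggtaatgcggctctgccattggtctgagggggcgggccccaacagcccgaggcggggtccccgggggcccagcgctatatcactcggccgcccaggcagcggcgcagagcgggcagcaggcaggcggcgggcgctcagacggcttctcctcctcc

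TIMP3 (ENSG00000100234), the matrix-bound inhibitor, lies on chromosome 22 from 32801705 to 32863041 on the plus strand, with 5 exons. In MDA-MB-231 No gRNA its libraries gave 1195, 1197 and 1209 CPM. Those of set 1 gave 199.7, 204.1 and 200.5 CPM, and those of set 2 gave 172.8, 165.5 and 171.3 CPM. The groups were far apart and tight, with a median coefficient of variation of 1.52%, the lowest of the 7 genes that have a value in all 9 groups. TIMP3 fell by 2.57 (SE 0.0237, TREAT adjusted p = 6.26e-12), 5.94-fold, in set 1 and by 2.80 (SE 0.0247, adjusted p = 2.19e-12), 6.96-fold, in set 2. Wild type, at 479.2, 479.0 and 480.7 CPM, lay between No gRNA and both sets. Against wild type as the control the fall in TIMP3 was smaller, at -1.30 in set 1 (adjusted p = 5.83e-06) and -1.53 in set 2 (adjusted p = 3.5e-07), and remained called. Those are also the lowest in size of the values recomputed.

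In SUM159 TIMP3 gave 585.5, 588.8 and 572.1 CPM in No gRNA, 569.1, 580.1 and 567.6 in All gRNA, and 636.7, 678.8 and 688.1 in gRNA 4. All gRNA overlapped No gRNA and gRNA 4 lay above it. The log2 fold change was -0.03 with All gRNA, with a 95% interval of -0.107 to 0.056, and 0.19 (SE 0.0368, moderated adjusted p = 0.00609) with gRNA 4. Against wild type of run 1 as the control TIMP3 was called higher in both. It stood at 1.42 with All gRNA (TREAT adjusted p = 4.71e-05) and 1.63 with gRNA 4 (TREAT adjusted p = 1.18e-06). The difference between the lines was tested in a single fit over 24 libraries, as the mean effect of the MDA-MB-231 sets minus that of the SUM159 targeted groups. For TIMP3 it was -2.79 (SE 0.0334, TREAT adjusted p = 1.05e-18), and TIMP3 was the only 1 of 10 genes called there, where 0.954% of all genes were. By the moderated test 6 of 10 passed (25.4% of all genes), and for MMP1, MMP3, MMP9 and MMP13, which were low in SUM159, a difference between the lines was not detectable at this depth with the sets averaged. Set 1 and set 2 had opposite signs in MMP1 (0.98 and -1.66), MMP3 (0.89 and -1.32) and MMP9 (2.27 and -0.28). Their effects therefore partly cancel in that mean. All MDA-MB-231 libraries of that fit were in run 2 and all SUM159 libraries in run 1. Each effect was taken within a line, which removes only a shift shared by all libraries of a run. A response to targeting that depends on run or medium cannot be told apart from one that depends on the line.

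TIMP1 (ENSG00000102265), on chromosome X from 47582408 to 47586789 on the plus strand, gave 136.2, 136.4 and 134.1 CPM in SUM159 No gRNA. It gave 191.5, 212.7 and 216.9 CPM in gRNA 4, and 228.7, 228.8 and 233.4 in All gRNA. Both targeted groups lay above No gRNA, at 0.60 (SE 0.0585, moderated adjusted p = 4.29e-05) and 0.76 (SE 0.0575, moderated adjusted p = 5.21e-06), within the threshold of TREAT. In MDA-MB-231 No gRNA it gave 226.5, 231.4 and 227.5 CPM. Set 1 was higher, at 297.0, 299.2 and 287.4 CPM, and set 2 lower, at 130.6, 135.7 and 138.5 CPM, beside 125.9, 123.1 and 133.2 in wild type. The log2 fold changes against No gRNA were 0.37 (SE 0.0327, moderated adjusted p = 5.33e-06) and -0.74 (SE 0.0378, moderated adjusted p = 2.98e-08). Relative to wild type set 1 stood at 1.16 in TIMP1 and was called (adjusted p = 0.0102). Set 2 overlapped wild type in TIMP1 as it did in MMP2. SUM159 wild type stood at 104.0 ± 7.04 CPM in run 1, below all other groups, and at 135.6 ± 7.91 in run 2 (SD, n = 3), where it overlapped SUM159 No gRNA.

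TIMP2 (ENSG00000035862), which also takes part in pro-MMP2 activation, lies on chromosome 17 from 78852977 to 78925387 on the minus strand. Among the MDA-MB-231 groups that carried dCas9-KRAB No gRNA stood at 613.0 ± 14.97 CPM, set 1 at 601.0 ± 8.56 and set 2 at 563.6 ± 13.6 (SD, n = 3). The log2 fold changes were -0.02 (moderated adjusted p = 0.531) and -0.10 (SE 0.0281, moderated adjusted p = 0.0129). In SUM159 it stood at 175.5 ± 3.51 CPM in No gRNA, 125.8 ± 6.27 in gRNA 4 and 149.2 ± 1.49 in All gRNA. Both were lower by the moderated test, by 0.49 (SE 0.0466, adjusted p = 3.55e-05) and 0.24 (SE 0.0452, adjusted p = 0.00599) on the log2 scale. Wild type stood at 437.5 ± 8.06 CPM in MDA-MB-231, and at 141.9 ± 1.78 in run 1 and 192.3 ± 5.63 in run 2 of SUM159. Genes that overlap the inhibitors had few reads, with at most 15.4 counts a library for SYN1 (TIMP1), 8.88 for SYN3 (TIMP3) and 9.58 for CEP295NL (TIMP2).

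Set 2 and set 1 were compared directly because their labels conflict. TREAT called 3 of 10 genes, against 3.07% of all genes, and all were lower in set 2. These were MMP1, by 2.64 (SE 0.0476, adjusted p = 8.71e-10), 6.23-fold; MMP9, by 2.54 (SE 0.0989, adjusted p = 1.01e-06), 5.83-fold; and MMP3, by 2.21 (SE 0.169, adjusted p = 0.000697), 4.62-fold. With no filter on low counts MMP1 stood at -2.61 and was not called (adjusted p = 0.855, the highest over 15 settings). The moderated test passed 7 of 10, as it did 51.5% of all genes. ZEB1 itself differed by -0.18 (moderated adjusted p = 0.528). TIMP1 was lower in set 2 by 1.11 (SE 0.0370, TREAT adjusted p = 0.156), TIMP3 by 0.23, and MMP15 was higher by 0.68 (moderated adjusted p = 0.00885). CD68 was lower in set 2 than in No gRNA by 1.34 and was called, PTPRC and CD3E were at or near 0 in all libraries, and the part of CD68 in these results was not tested. In SUM159 All gRNA against gRNA 4, TREAT called 0 of 7 genes tested (also 0 at an unadjusted p below 0.05, and by glmTreat and DESeq2) and 0.0% of all genes, while ZEB1 was lower with All gRNA by 2.25 (moderated adjusted p = 0.0165). The moderated test passed 2 of 7 (0.944% of all genes), TIMP2 at 0.26 (adjusted p = 0.030) and TIMP3 at -0.21 (adjusted p = 0.0207).

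No gRNA differed from wild type in several of these genes, with no ZEB1 guide present. In MDA-MB-231 TREAT called 2 of 10, against 3.6% of all genes. MMP2 was higher in No gRNA by 2.51 (SE 0.288, adjusted p = 0.00579), 5.72-fold, and TIMP3 by 1.27 (SE 0.0184, adjusted p = 1.65e-06), 2.41-fold. By the moderated test 8 of 10 genes passed, all higher in No gRNA, where 53.8% of all genes passed and 26.2% did so in that direction. Among them MMP9 was higher by 1.31 (SE 0.140), MMP3 by 0.99, MMP14 by 0.97, MMP1 by 0.90 and TIMP1 by 0.79. ZEB1 was higher as well, by 0.60 (moderated adjusted p = 5.16e-05). In SUM159 1 of 7 genes tested was called (1.53% of all genes), TIMP3, which gave 217.6, 209.3 and 213.4 CPM in wild type of run 1. It was higher in No gRNA by 1.44 (SE 0.0409, adjusted p = 5.15e-05), 2.71-fold. The moderated test passed 4 of 7, against 42.9% of all genes. TIMP3 was therefore called higher in No gRNA than in wild type in both lines, in SUM159 with wild type of run 1 only. The SUM159 wild type groups also differed from each other in TIMP3. They stood at 213.4 ± 4.16 CPM in run 1 and 12.2 ± 0.977 in run 2 (SD, n = 3).

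**Figure D4:**
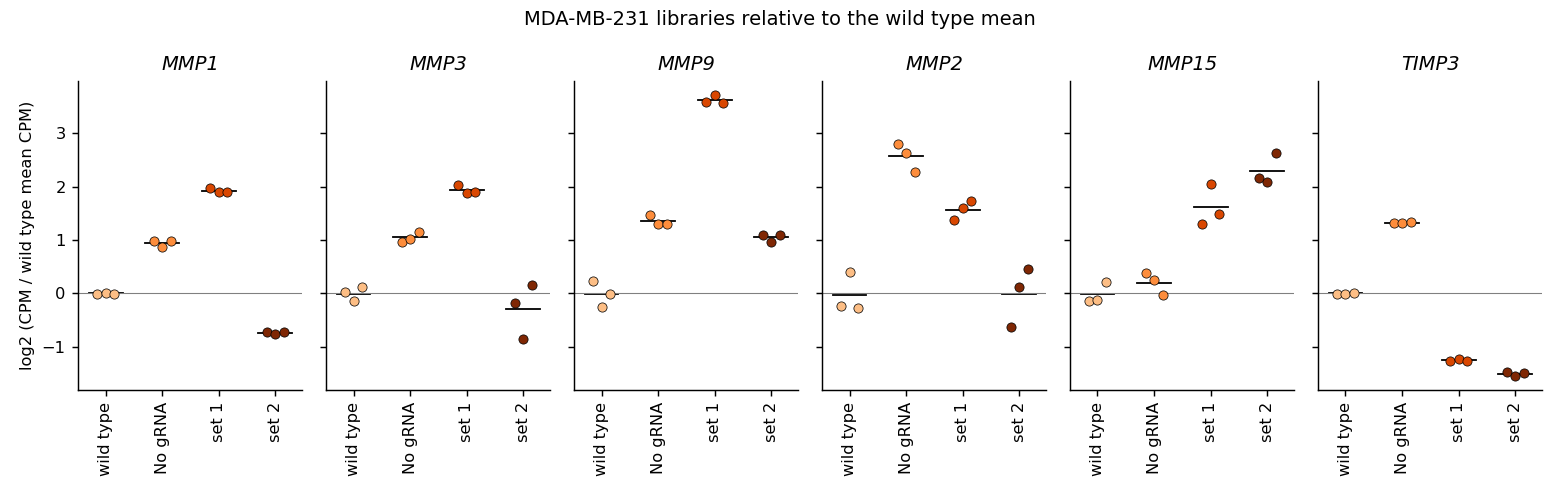
Levels of MMP1, MMP3, MMP9, MMP2, MMP15 and TIMP3 in the MDA-MB-231 libraries relative to the mean of wild type, on a log2 axis, with a point for each library and a bar for each group mean. No gRNA lies above wild type for MMP1, MMP3, MMP9, MMP2 and TIMP3 and overlaps it for MMP15. Set 2 overlaps wild type in MMP2 and MMP3, and TIMP3 of both sets lies below wild type.

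The wild type lines were compared within run 2, where TREAT called 8 of 10 genes, against 28.8% of all genes, and the moderated test passed 9 of 10, against 73.0%. MMP1, at 3.62, 3.89 and 3.94 CPM in SUM159 and 2937, 2978 and 2949 in MDA-MB-231, was 788-fold lower in SUM159 (log2 -9.62, SE 0.530). MMP14 was 98.0-fold lower (log2 -6.62, SE 0.228), and MMP2, at 232.5, 204.2 and 222.3 CPM in SUM159, was 192-fold higher there (log2 7.59, SE 0.283). MMP3 was read with 2 counts over the SUM159 libraries against 833 in MDA-MB-231, a ratio of 380 (exact 95% interval 105 to 3150, counting error only), and MMP9, at 0 in all 3 SUM159 libraries of run 2, was at least 21.3-fold higher in MDA-MB-231 with a floor of 3 counts a library. TIMP2 was 2.33-fold lower in SUM159, MMP15 was 0.84 higher on the log2 scale, and TIMP1 differed by 0.05 with a 95% interval of -0.0504 to 0.155. With SUM159 wild type of run 1 in place of run 2, MMP14 stood at -8.23, MMP2 at 6.72, MMP3 at -4.60 and TIMP2 at -1.61 on the log2 scale, and these and MMP1 were called. In that setting MMP15 and TIMP1 changed sign, to -0.32 and -0.28, and were not called. With no filter on low counts MMP1 stood at -9.59 and was not called (adjusted p = 1.0, the highest over 16 settings). The call for MMP13, 22 counts against 3, was lost in 7 of 15 settings recomputed, with adjusted p from 0.00017 to 0.318.

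TIMP3 in this comparison depends on which SUM159 wild type libraries are used. In run 2 they gave 12.5, 11.1 and 12.95 CPM, 40.3-fold below MDA-MB-231 (log2 -5.33), whereas with those of run 1 in their place the log2 value was -1.16. Between the runs TREAT called 2 of 8 genes tested, where 6.47% of all genes were called, and the moderated test passed 7 of 8, against 58.8%. TIMP3 was lower in run 2 by 4.14 (SE 0.0830), 17.6-fold, and MMP1 was higher, with 181 counts against 5, a ratio of 46.8 (exact 95% interval 19.7 to 146, counting error only). All 8 genes had runs that did not overlap, as did 65.5% of all genes. MMP2, at 116.3 ± 6.07 CPM in run 1 and 219.7 ± 14.3 in run 2, TIMP1 and TIMP2 were higher in run 2 by 0.91, 0.37 and 0.43. Run and culture cannot be told apart here.

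Levels were compared between genes only as CPM per kb of the canonical transcript. In MDA-MB-231 wild type MMP1 led at 1499 CPM per kb, followed by TIMP1 at 166, TIMP2 at 120, TIMP3 at 104, MMP14 at 71.9, MMP3 at 8.79, MMP9 at 1.73, MMP15 at 1.66, MMP2 at 0.317 and MMP13 at 0.156. The neighbours MMP9 and MMP15 overlapped between libraries. In SUM159 wild type of run 1 the order was led by TIMP1 at 135, TIMP3 at 46.4, TIMP2 at 38.9 and MMP2 at 33.1, and the next gene, MMP15, stood at 1.34. In run 2 TIMP1 led at 176, followed by MMP2 at 62.5, TIMP2 at 52.7, MMP15 at 3.05 and TIMP3 at 2.65, of which MMP15 and TIMP3 overlapped between libraries. Summed per kb, the 7 MMPs stood to the 3 TIMPs in a ratio of 4.06 ± 0.0955 for MDA-MB-231 wild type and 4.23 ± 0.213 for No gRNA, against 9.98 ± 0.326 for set 1 and 2.90 ± 0.0405 for set 2 (SD, n = 3). That ratio is mainly MMP1, since without it the values were 0.217, 0.238, 0.366 and 0.450. In SUM159 the ratio was 0.0895 ± 0.00560 in No gRNA, 0.0645 ± 0.00254 in gRNA 4 and 0.0630 ± 0.00173 in All gRNA, below the 0.159 ± 0.00549 of wild type in run 1 and the 0.295 ± 0.0104 of wild type in run 2. It is a ratio of RNA levels and measures no enzyme activity.

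**Figure D5:**
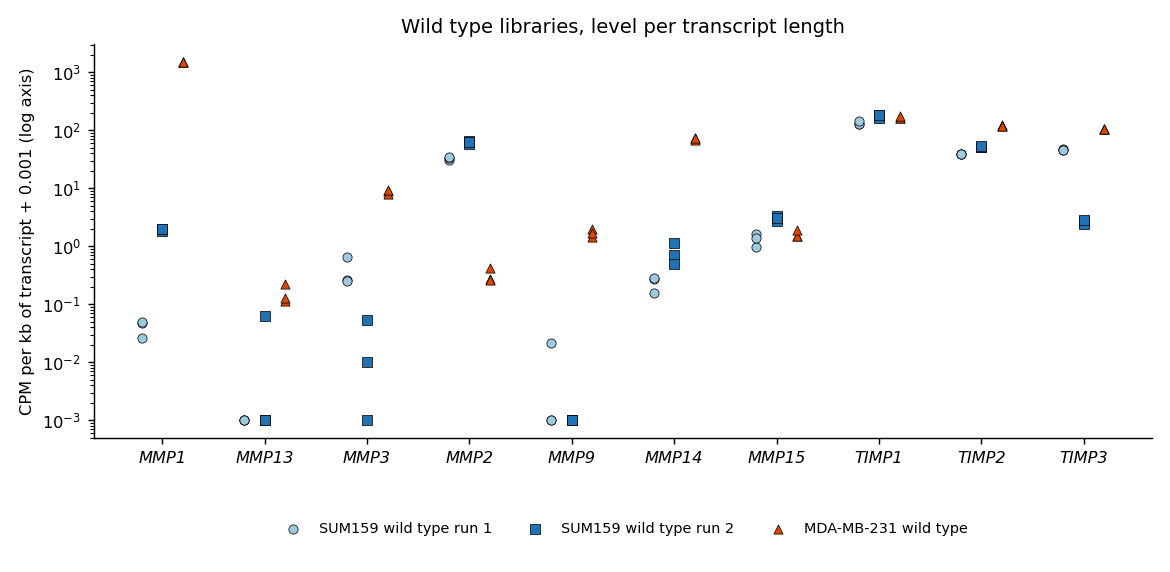
Level of each gene in wild type cells, in CPM per kb of canonical transcript on a log10 axis (offset 0.001), with a point for each library of SUM159 run 1, SUM159 run 2 and MDA-MB-231. MMP1 leads in MDA-MB-231 at 1499 CPM per kb, and TIMP1 leads in both SUM159 groups at 135 and 176.

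Across the 9 groups TIMP3 was ordered, from the top, as MDA-MB-231 No gRNA, SUM159 gRNA 4, SUM159 No gRNA, SUM159 All gRNA, MDA-MB-231 wild type, SUM159 wild type of run 1, set 1, set 2 and SUM159 wild type of run 2, and of these neighbours only SUM159 No gRNA and All gRNA overlapped. MMP1 ran from set 1 over No gRNA, wild type and set 2 of MDA-MB-231 down to the SUM159 groups, of which gRNA 4, No gRNA and wild type of run 1 overlapped. MMP15 was led by set 2 and then set 1, and each of the remaining groups overlapped the next in order. By likeness of pattern over the 12 MDA-MB-231 libraries, which fall into 4 groups, the genes with the highest Pearson r to MMP1 were KLF10 (0.988), SNHG29 (0.988) and GAS5 (0.987). For MMP9 they were KRTAP2-3 (0.997), CDKN1A (0.996) and ANKRD1 (0.993), and for TIMP3 OLFML2A (0.991), HTRA1 (0.989) and PRKCA (0.988). For MMP2 they were NMNAT2 (0.979), FBXL13 (0.973) and MCL1 (0.973), and for MMP15 KCNK1 (0.979), SPDEF (0.976) and UTP3 (0.973). The 12 points share 4 group means, and r is given as a description.

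Other genes of the same system were counted over 8 lists, and their counts stand beside the shares of all genes called by TREAT, 1.47% in set 1 and 4.14% in set 2. Of 16 other MMP genes 5 were tested in MDA-MB-231, with 0 called in set 1 (median log2 fold change -0.72) and 2 called lower in set 2 (median -2.06). Those were MMP10, at -3.68 (SE 0.368, adjusted p = 0.000497), and MMP19, at -3.55 (SE 0.471, adjusted p = 0.00452), from 1.94 to 0.157 CPM. In MDA-MB-231 wild type MMP10 stood at 0.562 CPM and MMP19 at 0.663. Of the ADAM and ADAMTS proteinases, relatives that shed surface proteins or cleave proteoglycans, 14 of 16 were tested. ADAMTS1, which cleaves aggrecan and versican, and ADAMTS6, a secreted relative, were called higher in set 1, at 1.62 (SE 0.0878, adjusted p = 0.00116) and 1.56 (SE 0.0698, adjusted p = 0.000434), and the list median was 0.15. In set 2 ADAMTS14, a procollagen propeptidase, was at 0 in all 3 libraries, at least 6.38-fold below No gRNA, and the list median was -0.18. Wild type ADAMTS14 was also at the floor, at 0.0954 CPM and at most 1.98 counts a library. Of this list TREAT called 3 genes higher in No gRNA than in wild type and 0 lower, where 3.6% of all genes were called. Among these were ADAMTS14 and ADAMTS6, the latter at 16.0 CPM in wild type and 80.1 in No gRNA.

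Of 7 genes of plasminogen activation, the serine protease cascade that can activate pro-MMPs, 6 were tested in MDA-MB-231. SERPINB2, an inhibitor of plasminogen activators, was called higher in set 1, from 125.9 to 390.0 CPM (log2 1.64, SE 0.0499, adjusted p = 9.23e-06), with a list median of 0.33, and 0 were called in set 2, with a median of -0.72. Of the 7 AP-1 subunits, transcription factors known to drive several MMP promoters, TREAT called 0 against No gRNA in either set, with medians of 0.43 for set 1 and -0.47 for set 2. The moderated test found 4 AP-1 subunits higher and 1 lower in set 1, and 2 higher and 5 lower in set 2, where 37.8% and 52.4% of all genes passed in either direction. Between the sets TREAT called FOSB and JUNB lower in set 2 and 0 subunits higher (3.07% of all genes). It called FOS and FOSB lower in MDA-MB-231 No gRNA than in wild type and 0 subunits higher (3.6% of all genes). Of the remaining lists, the 5 proconvertases and cofactors of activation had 0 called (medians -0.14 and -0.03), as had the 2 tested of 3 other inhibitors (TIMP4, RECK and A2M, medians -0.35 and -1.21) and the 3 tested of 7 collagen genes (medians 0.44 and 0.40). By the moderated test all 3 of these collagen genes were higher in both sets, beside the 37.8% and 52.4% of all genes that passed. That test also put 2 of the 3 higher and 0 lower in MDA-MB-231 No gRNA than in wild type, where 53.8% of all genes passed. Of 4 genes that overlap a member only WTAPP1 was tested and was called lower in set 2. In SUM159 TREAT called 0 genes of the 8 lists in either targeted group (3 with All gRNA and 4 with gRNA 4 at an unadjusted p below 0.05), where 0.396% and 0.39% of all genes were called. The median lay between -0.54 and 0.48 in 7 lists, and for the 2 tested genes that overlap a member it was 1.98 with All gRNA and 1.79 with gRNA 4, of which 0 passed the moderated test. That test put 3 AP-1 genes higher with All gRNA and 2 with gRNA 4, and 3 and 4 collagen genes lower, beside 10.8% and 11.0% of all genes in either direction.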

How the data were processed

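RNA of 27 libraries (9 groups of 3) was sequenced by the study as short single-end reads. The deposited gene table holds estimated counts, which the authors obtained by pseudo-alignment with Salmon and import into R with tximport, and their processing notes name GRCh38. Whether counting used strand and the Salmon version are not given in the sources used here. Totals per library were 15461200 to 21473757, so intervals from counts cover counting error only, genes at 0 in all libraries of a group were given as bounds with a floor of 3 counts a library, and some genes with few counts as a ratio with its exact counting interval, since their fitted values depend on the count that voom adds.

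Groups came from the sample labels. In R 4.3.3, genes were kept by filterByExpr (minimum count 10), scaled by TMM (edgeR 4.0.16) and fitted with voom in limma 3.58.1, over the 12 libraries of a line, or 15 or 24 for comparisons of lines and runs, as group means. TREAT at a log2 fold change of 1 was the main test and the moderated test against 0 was reported beside it, with Benjamini-Hochberg adjustment over 15147 to 17182 genes. CPM are TMM-scaled, and voom adds 0.5 to a count. An exact permutation test of 3 against 3 libraries cannot go below p = 0.1 and was not used. Counts were rounded for edgeR and DESeq2 1.42.0, which were alternatives. The fits were tested on simulated data. Gene positions were taken from GENCODE 44 (56347 of 57165 IDs matched). The genes, the 8 gene lists (other MMP family genes, other inhibitors, plasminogen activation, proconvertases and cofactors, ADAM and ADAMTS proteinases, AP-1 subunits, collagen substrates, genes overlapping a member) and the tests were chosen with earlier results of these data known. Named were all 10 members, list genes called against No gRNA, at most 4 a list, and the 3 genes most like each called member. The sample titles number the libraries of a group as biological replicates and the methods describe them as individual clones, so p-values measure the spread between these libraries.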

Additional observations from a re-analysis of the deposited data

Results flagged for a closer look

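A difference between groups in the same contrast was found for TIMP3, MMP1, MMP3 and MMP9. For TIMP3 the effect of targeting ZEB1 in MDA-MB-231 minus that in SUM159 was -2.79 on the log2 scale. It was tested as an interaction in a fit over 24 libraries, in which line, run and medium cannot be told apart. For MMP1, MMP3 and MMP9 the effect in MDA-MB-231 set 2 differed from that in set 1 by -2.64, -2.21 and -2.54 on the log2 scale, tested as the direct contrast of the sets, whose No gRNA libraries cancel. For MMP1, MMP3 and MMP9 a difference between the lines was not detectable at this depth with the sets averaged, and the sets had opposite signs in these genes.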

How the results depend on the processing

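Direction and call were recomputed under up to 28 alternatives for each value. Of 1609 single-gene values recomputed, 1483 kept direction and side of the threshold, 89 passed it, 13 lost it and 24 changed sign, and 0 of the sign changes were of genes called in the main setting. TIMP3 with SUM159 All gRNA, not called in the main setting, changed sign and was called with wild type as the control (TREAT adjusted p = 4.71e-05). Counts of genes called, in the order SUM159 All gRNA, SUM159 gRNA 4, set 1, set 2, SUM159 No gRNA against wild type, MDA-MB-231 No gRNA against wild type, SUM159 All gRNA against gRNA 4, set 2 against set 1, run 2 against run 1 and the difference between lines, were 2, 3, 7, 7, 4, 8, 2, 7, 7 and 6 by the moderated test and 2, 3, 7, 8, 4, 8, 2, 8, 8 and 6 by edgeR's quasi-likelihood test. Both ask for any difference from 0, and so pass more genes by construction. edgeR's glmTreat and DESeq2 with the threshold of 1 called 2 genes for the difference between lines.

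With wild type in place of No gRNA as the control 1 gene was called with All gRNA, 1 with gRNA 4, 5 in set 1 and 2 in set 2. Signs then changed for MMP15 (0.54), TIMP2 (0.064) and TIMP3 (1.42) with All gRNA, MMP3 (-0.83) with gRNA 4, MMP13 (0.44), MMP2 (1.52) and TIMP2 (0.41) in set 1, and MMP9 (1.04), TIMP1 (0.051) and TIMP2 (0.34) in set 2, and for MMP3 (0.94) and MMP2 (1.19) in the difference between lines. Library totals as the scaling turned MMP14 in set 2 to -0.043. With SUM159 wild type of run 1 in place of run 2, an alternative chosen after seeing the data, MMP15 and TIMP1 changed sign between the lines (-0.32 and -0.28).

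Leaving out 1 library at a time kept the counts of called genes at 0, 0, 2, 3 to 4, 1, 2, 0, 3, 2 and 1 in the order above, and at 7 to 8 between the lines. Ranges crossed 0 for MMP15 with All gRNA (-0.20 to 0.045), with gRNA 4 (-0.16 to 0.56) and between them (-0.61 to 0.12), for MMP3 with gRNA 4 (-1.20 to 1.11), and for MMP14 in set 2 (-0.014 to 0.045) and in SUM159 No gRNA against wild type (-0.26 to 0.68). The libraries that changed the sign were All gRNA replicates 2 and 3, gRNA 4 replicates 1 and 2, SUM159 No gRNA replicates 1 and 3, SUM159 wild type run 1 replicate 1 and MDA-MB-231 No gRNA replicate 3.

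With no filter on low counts MMP1 lost its call in set 2, between the sets and between the lines, and the median of all genes shifted by 0.158 in SUM159 No gRNA against wild type, 0.218 between the lines and 0.229 between the runs. For libraries of the same replicate number in different groups, deviations of log2 CPM from the group mean correlated between -0.0831 and 0.0527. The numbers therefore do not pair the libraries. A replicate block left every count of called genes as it was except between the lines, where it fell from 8 to 7 with MMP13 at -2.80 (adjusted p = 0.0506). Where a value changed and no construction is named, the cause was not tested. Depth limits MMP13 in both lines and MMP1, MMP3, MMP9 and MMP14 in SUM159.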
